A study of Mus musculus with 4 samples.

Results

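The genes described here are the chemokine ligands and the interleukins of mouse ID8 cells, an ovarian cancer line derived from mouse ovarian surface epithelium. They were chosen by symbol alone: every gene of the deposited table named Ccl, Cxcl, Cx3cl or Il followed by a number, receptors and binding proteins excluded, without Ccl6. This gave 72 of the 22063 genes in the table, of which 36 were chemokines (23 CC, 12 CXC and 1 CX3C) and 36 were interleukins. The question was which of these secreted signals change at the RNA level when the deubiquitinase USP9X is depleted. ID8 cells with a control shRNA (shCtrl, genotype WT) were compared with ID8 cells with an shRNA against USP9X (shUSP9X, USP9X knockdown), with 2 libraries per group made from poly(A)-selected RNA. Both groups share the ID8 background, and the sources used here, which list 2 mouse shRNAs against USP9X, state neither which of them the sequenced cells carried, nor the oxygen level, nor any TGF-β treatment. Nothing states that the 2 libraries of a group came from separate cultures, so p-values measure the spread between these libraries, which may be technical.

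The shCtrl libraries held 17232006 and 15611363 estimated counts in total, and the shUSP9X libraries 19978889 and 17021261. The chemokine and interleukin genes made up 0.0353% and 0.0329% of the shCtrl totals and 0.0384% and 0.0398% of the shUSP9X totals. A level of 3 counts in a library served as the floor of detection, which is 0.152 to 0.19 CPM (normalised counts relative to library size) and covers counting error only. The knockdown itself was deep. Usp9x had 5169 and 4453 counts in shCtrl against 390 and 346 in shUSP9X, from 289.8 ± 11.6 to 20.1 ± 0.570 CPM (mean ± SD, n = 2), a log2 fold change of -3.85. With an offset for GC content and length it was -2.34, called lower as well. ID8 identity markers of the ovarian surface epithelium and mesothelium were abundant in both groups, with 8 of 10 listed genes tested and a summed level of 2500 and 2530 CPM in shCtrl and 2840 and 2780 CPM in shUSP9X, of which Krt19 had the most. Of the 8, Krt8, Krt18 and Krt19 were higher in shUSP9X and Msln, Wt1, Cdh2 and Muc16 were lower (median log2 fold change -0.21). Over all genes tested, 33.8% were higher and 33.6% lower. After an offset for GC content and length, 2 of the 8 were higher and 6 lower, against 36.0% and 27.4% of all genes. The share of lower genes in this list was thus above that of all genes. The median was then -0.31, and Krt19 was among the lower. Muc16 had 33 and 43 counts in shCtrl against 1 and 0 in shUSP9X. It passed the filter on low counts only through the shCtrl libraries, so that its call as lower adds little to these counts. Of that list, Krt7 stayed at or under the floor in all 4 libraries.

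Chemokines are small secreted proteins that attract leukocytes through G protein-coupled receptors. They are sorted into families by how many residues separate their first cysteines, and the CXC ligands are split again by a glutamate-leucine-arginine (ELR) stretch before the first cysteine, which neutrophil-attracting ligands carry. Interleukins are a looser group of cytokines that act on leukocytes and on epithelial cells through several unrelated receptor families. In epithelial tumours the 2 groups are known for shaping which immune cells enter the tissue, and many of their genes are switched on by the NF-κB and interferon pathways.

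The coding stretches around the first cysteines are shown for the chemokines that passed the test for a difference, because they define the family by which the results are ordered. Each is 30 bases long, on the strand of the gene in GRCm38, with the codons of the first pair of cysteines in capitals and, where present, the 3 ELR codons before them. They lie in exon 2 at chr11:82036497-82036526 (Ccl2, plus strand), chr11:83529227-83529256 (Ccl5, minus), chr5:92348169-92348198 (Cxcl10, minus), chr5:90759718-90759747 (Cxcl5, plus), chr5:90786359-90786388 (Cxcl3, plus), chr6:117171499-117171528 (Cxcl12, plus) and chr8:94778042-94778071 (Cx3cl1, plus).
Ccl2: ccactcaccTGCTGCtactcattcaccagc
Ccl5: accactcccTGCTGCtttgcctacctctcc
Cxcl10: acggtccgcTGCaacTGCatccatatcgat
Cxcl12: agctaccgaTGCcccTGCcggttcttcgag
Cxcl5: GAGCTGCGTTGTgttTGCttaaccgtaact
Cxcl3: GAGCTGCGCTGTcagTGCctgaacacccta
Cx3cl1: atgacgaaaTGCgaaatcatgTGCgacaag
No codon separates the cysteines of Ccl2 and Ccl5, 1 codon separates those of the CXC ligands, and 3 separate those of Cx3cl1. Such a pair was found in 35 of the 36 chemokine genes, and ELR codons stood before it in 5 of them, Cxcl1, Cxcl2, Cxcl3, Cxcl5 and Cxcl15. The list of ELR ligands used here also holds Cxcl17, which has no such codons.

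Most of these genes were silent or close to it. In all 4 libraries, 31 of the 72 had 0 counts and a further 14 had at most 3, so 45 were not detectable at this depth. Among them were the T cell attractants Ccl17, Ccl22 and Cxcl9, the lymphoid chemokines Ccl19, Ccl21a and Cxcl13, and the interleukins Il2, Il10, Il12a, Il12b, Il13 and Il17a. Il1b, a central inflammatory cytokine, had 0 counts in both shCtrl libraries and 2 in each shUSP9X library. Of the 27 genes above the floor in some library, 19 passed the filter on low counts and were tested (16 chemokines and 3 interleukins). The other 8 are given below by their counts.

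Per transcript length, 2 chemokines made up most of the message. Ccl2, which attracts monocytes through CCR2, stood at 68.0 and 59.7 FPKM (fragments scaled for transcript length and library size) in shCtrl and at 107.1 and 106.8 FPKM in shUSP9X. Cxcl12, the CXCR4 ligand that retains stem cells and lymphocytes in tissues, stood at 59.5 and 58.1 FPKM in shCtrl and at 41.1 and 45.8 FPKM in shUSP9X. In shCtrl cells their levels were close, with a ratio of Ccl2 to Cxcl12 of 1.14 and 1.03, whereas in shUSP9X cells Ccl2 was the more abundant by a ratio of 2.61 and 2.33. The next genes lay well below them. Cxcl16 had mean levels of 13.6 ± 0.501 and 11.7 ± 1.41 FPKM in shCtrl and shUSP9X, Il16 had 11.7 ± 0.331 and 16.7 ± 0.532 FPKM, and Ccl7 had 9.10 ± 1.68 and 9.68 ± 1.34 FPKM (mean ± SD, n = 2). In shCtrl the order of Cxcl16 and Il16 was the same in both libraries, and in shUSP9X it was the reverse in both. The remaining genes were under 7 FPKM in shCtrl. Summed over all 72 genes, the level was 209.3 and 188.6 FPKM in shCtrl and 249.4 and 249.3 FPKM in shUSP9X. Without Ccl2 and Cxcl12 the sum was 81.7 and 70.8 FPKM in shCtrl and 101.1 and 96.7 FPKM in shUSP9X.

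**Figure D1:**
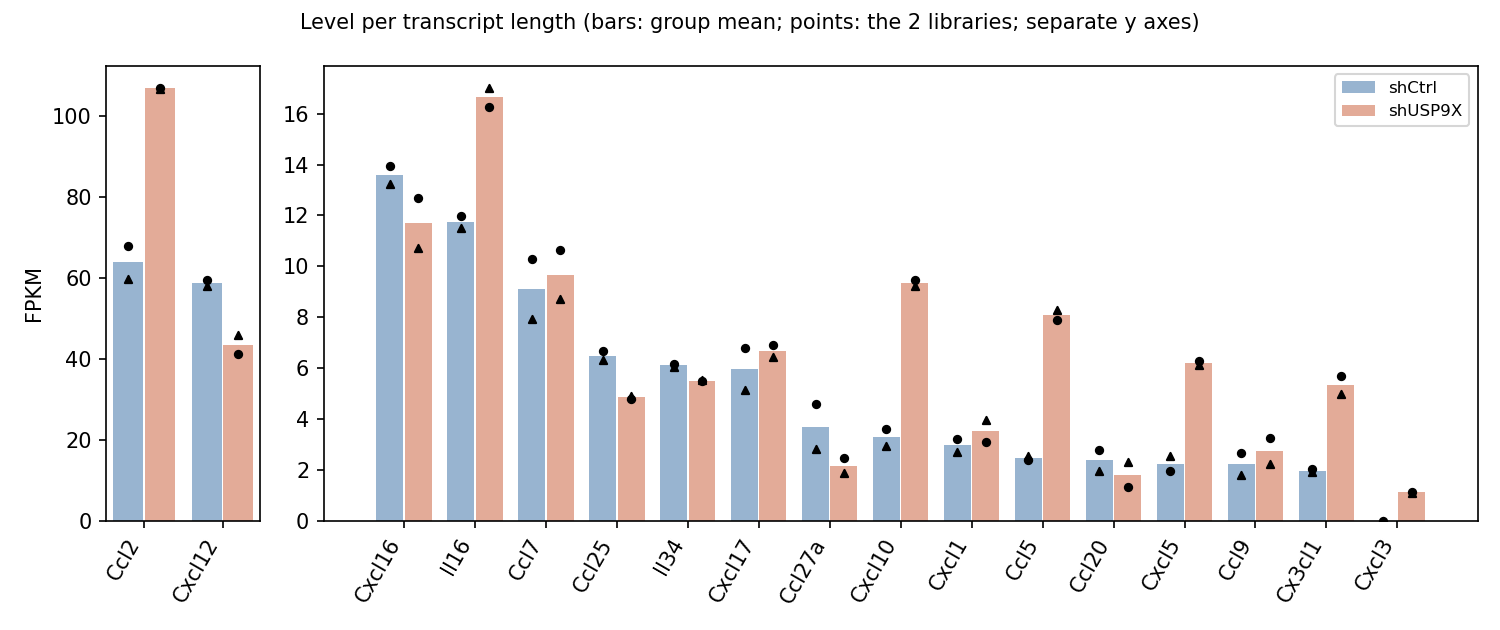
Level per transcript length (FPKM, linear axes) of the chemokine and interleukin genes with a group mean of at least 1, with bars for the mean of the 2 libraries and a circle and triangle for libraries 1 and 2. Ccl2 and Cxcl12 are on their own axis, and Cxcl10, Ccl5, Cxcl5 and Cx3cl1 rise from between 1.95 and 3.27 FPKM in shCtrl to between 5.33 and 9.34 FPKM in shUSP9X.

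In the test across all genes (edgeR's quasi-likelihood test, Benjamini-Hochberg adjusted p under 0.05), 7 of the 19 tested genes were higher in shUSP9X cells, 6 chemokines and Il16, and 1, Cxcl12, was lower. The knockdown changed many genes, so this has to be read against the background. Of all 11448 genes tested, 33.8% were higher and 33.6% lower. The share of chemokine and interleukin genes that were higher was near the background (36.8%), and the share that were lower was 5.26%, a gap to the background that was smaller with the offset given below. At the study's cutoff (p under 0.05 before adjustment with a fold change over 1.5), 6 of the 19 were higher, 31.6% against 10.8% of all genes, and 0 were lower, against 18.7% of all genes. The median log2 fold change of the 19 was 0.18, and that of all genes tested was 0. With an offset for GC content and length, described below, 8 of the 19 were higher (42.1% against 36.0% of all genes) and 4 lower (21.1% against 27.4%), and the medians were 0.50 and 0.05. These shares describe the list, whose genes passed the filter partly through the group in which they are high, and no test was made on it.

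Among the CC ligands, 8 of 23 were tested and 2 were higher, against 33.8% of all genes tested. Ccl2 (ENSMUSG00000035385, chr11:82035571-82037453, plus strand) had 953 and 758 counts in the shCtrl libraries against 1740 and 1478 in the shUSP9X libraries. Both shUSP9X libraries lay above both shCtrl libraries, at 87.9 ± 0.216 against 51.45 ± 4.96 CPM (mean ± SD, n = 2). The log2 fold change was 0.77 (SE 0.06, adjusted p = 5.04e-11). Ccl5, also known as RANTES, recruits T cells, eosinophils and monocytes and is induced by interferon and NF-κB. Its gene (ENSMUSG00000035042, chr11:83525778-83530518, minus strand) had 22 and 21 counts in shCtrl against 84 and 75 in shUSP9X. The groups did not overlap, with 1.298 ± 0.0420 against 4.35 ± 0.143 CPM, a log2 fold change of 1.74 (SE 0.30, adjusted p = 1.29e-05). The fold changes of Ccl5, Cxcl10 and Cxcl5 had overlapping intervals, and their order changed with the GC content and length offset.

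The tested neighbours of Ccl2 and Ccl5 on chromosome 11 among these genes, Ccl7 and Ccl9, did not pass the test. Ccl7, a monocyte attractant that starts 8.3 kb beyond the end of Ccl2, had 142 and 99 counts in shCtrl against 170 and 119 in shUSP9X. Its normalised values overlapped between the groups, with a log2 fold change of 0.12 and a 95% interval of -0.25 to 0.48, whose upper end is below the lower end of the Ccl2 interval (0.64 to 0.90). The difference between the 2 genes was not itself tested. Ccl11, Ccl12, Ccl8 and Ccl1, which follow in the same cluster, were at or under 3 counts in every library. Ccl9, an attractant of myeloid cells that lies 42.4 kb from Ccl5, had 138 and 85 counts in shCtrl against 195 and 114 in shUSP9X, again overlapping once normalised (log2 fold change 0.32, interval -0.08 to 0.73). Beyond Ccl9 lie Ccl6, which is not among the genes chosen and had 0 and 1 counts in shCtrl against 205 and 198 in shUSP9X, and then Ccl3. Ccl3, a macrophage inflammatory protein, had 0 counts in both shCtrl libraries and 8 and 5 in shUSP9X. Its mean CPM in shUSP9X was 1.93 times the shCtrl floor of 3 counts per library, which allows for no error in these few shUSP9X counts. Ccl3 was under the filter on low counts and was tested only in fits without it. Of these edgeR called it higher (adjusted p = 0.0282), as did limma-trend on log2(FPKM + 0.1), and DESeq2 did not (0.0535). For limma-trend it reached the mean FPKM of 0.1 only through the shUSP9X libraries, so that this call adds little to its counts.

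The 4 remaining CC ligands tested serve epithelia, skin and thymus, and none was called. Ccl20, the CCR6 ligand of mucosal surfaces, had 38 and 28 counts in shCtrl against 21 and 32 in shUSP9X. Ccl25, a thymus and gut chemokine, had 104 and 90 counts in shCtrl against 87 and 77 in shUSP9X, and its normalised values were lower in both shUSP9X libraries (log2 fold change -0.38, interval -0.80 to 0.03). Its exons overlap on the opposite strand those of Elavl1, which was higher in shUSP9X (log2 fold change 0.49), and reads of the 2 genes cannot be told apart without strand. Ccl27a, a skin chemokine, had 44 and 28 counts in shCtrl against 29 and 19 in shUSP9X (log2 fold change -0.73, adjusted p = 0.0792). That value is uncertain, because 45.0% of the 50-base stretches of its transcript also occur in copies such as Ccl27b. Exons of Ccl27a also overlap on the opposite strand those of Il11ra1. That gene had 389 and 372 counts in shCtrl against 376 and 375 in shUSP9X and was not called without the offset. Ccl28 was close to the floor, with 14 and 7 counts in shCtrl against 12 and 10 in shUSP9X. Its interval of -1.21 to 1.06 includes a 2-fold change in either direction.

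Among the CXC ligands, 7 of 12 were tested, 3 were higher and 1 was lower, against 33.8% and 33.6% of all genes tested. Cxcl10, also known as IP-10, attracts activated T cells and NK cells through CXCR3 and takes its name from its induction by interferon-γ. Its gene (ENSMUSG00000034855, chr5:92346638-92348889, minus strand) had 68 and 50 counts in shCtrl against 207 and 172 in shUSP9X. The shUSP9X libraries were both above the shCtrl libraries, at 10.3 ± 0.187 against 3.54 ± 0.537 CPM (log2 fold change 1.54, SE 0.18, adjusted p = 4.14e-08). Cxcl9, which shares the receptor of Cxcl10 and lies 18.6 kb away, had 0 counts in all 4 libraries. Exons of Art3 overlap Cxcl10 on the opposite strand, and Art3 also had 0 counts throughout.

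The ELR ligands attract neutrophils through CXCR2, and their genes lie together on chromosome 5. Cxcl5 (ENSMUSG00000029371, chr5:90759360-90761624, plus strand) had 53 and 62 counts in shCtrl against 198 and 164 in shUSP9X, from 3.49 ± 0.612 to 9.88 ± 0.2003 CPM. The libraries of the groups did not overlap (log2 fold change 1.51, SE 0.19, adjusted p = 9.6e-08). Cxcl3 (ENSMUSG00000029379, chr5:90786103-90789600, plus strand), which starts 24.5 kb beyond Cxcl5, had 0 counts in both shCtrl libraries and 23 and 19 in shUSP9X. Its mean CPM in shUSP9X was 6.32 times the shCtrl floor, with no allowance for error in the shUSP9X counts. It passed the filter on low counts only through the shUSP9X libraries, so that its call (adjusted p = 7.97e-06) adds little to these counts, and without the filter its adjusted p was 5.28e-06 (edgeR). Of the 50-base stretches of its transcript, 4.24% occur in other genes, Cxcl2 among them. Cxcl1, the most studied neutrophil attractant of the mouse, had 53 and 40 counts in shCtrl against 59 and 64 in shUSP9X, with overlapping normalised values and a log2 fold change of 0.27 (interval -0.30 to 0.84). The difference between Cxcl1 and the genes called higher was not tested. Cxcl2 had 5 and 2 counts in shCtrl against 10 and 5 in shUSP9X. Cxcl15, a lung chemokine, had 9 and 6 counts in shCtrl against 3 in each shUSP9X library. Both were under the filter on low counts, and neither was called without it (adjusted p = 0.505 and 0.314, edgeR).

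Cxcl12 (ENSMUSG00000061353, chr6:117168535-117181367, plus strand) was the 1 gene of the 19 that was lower. It had 2491 and 2204 counts in shCtrl against 2091 and 1971 in shUSP9X, or 141.5 ± 3.01 against 111.4 ± 7.92 CPM. The shUSP9X libraries both lay below the shCtrl libraries, with a log2 fold change of -0.35 (SE 0.05, adjusted p = 1.5e-06). The remaining CXC ligands, Cxcl16 and Cxcl17, did not pass the test. Cxcl16, a membrane-bound chemokine that also acts as a scavenger receptor, had 487 and 414 counts in shCtrl against 508 and 414 in shUSP9X, slightly lower in both shUSP9X libraries once normalised (log2 fold change -0.11, interval -0.30 to 0.08). Exons of Zmynd15, which was not called (0.02), overlap it on the opposite strand. Cxcl17, a mucosal chemokine, had 89 and 61 counts in shCtrl against 105 and 83 in shUSP9X (log2 fold change 0.18, interval -0.26 to 0.63), with overlapping normalised values.

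Cx3cl1 (ENSMUSG00000031778, chr8:94772009-94782427, plus strand), or fractalkine, is the other chemokine made on the cell membrane. It binds CX3CR1 on monocytes, NK cells and microglia, both on the membrane and after shedding by the proteases ADAM10 and ADAM17. The gene had 115 and 98 counts in shCtrl against 271 and 233 in shUSP9X. Both shUSP9X libraries were above both shCtrl libraries, at 13.8 ± 0.0841 against 6.415 ± 0.307 CPM, a log2 fold change of 1.10 (SE 0.15, adjusted p = 2.55e-07).

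**Figure D2:**
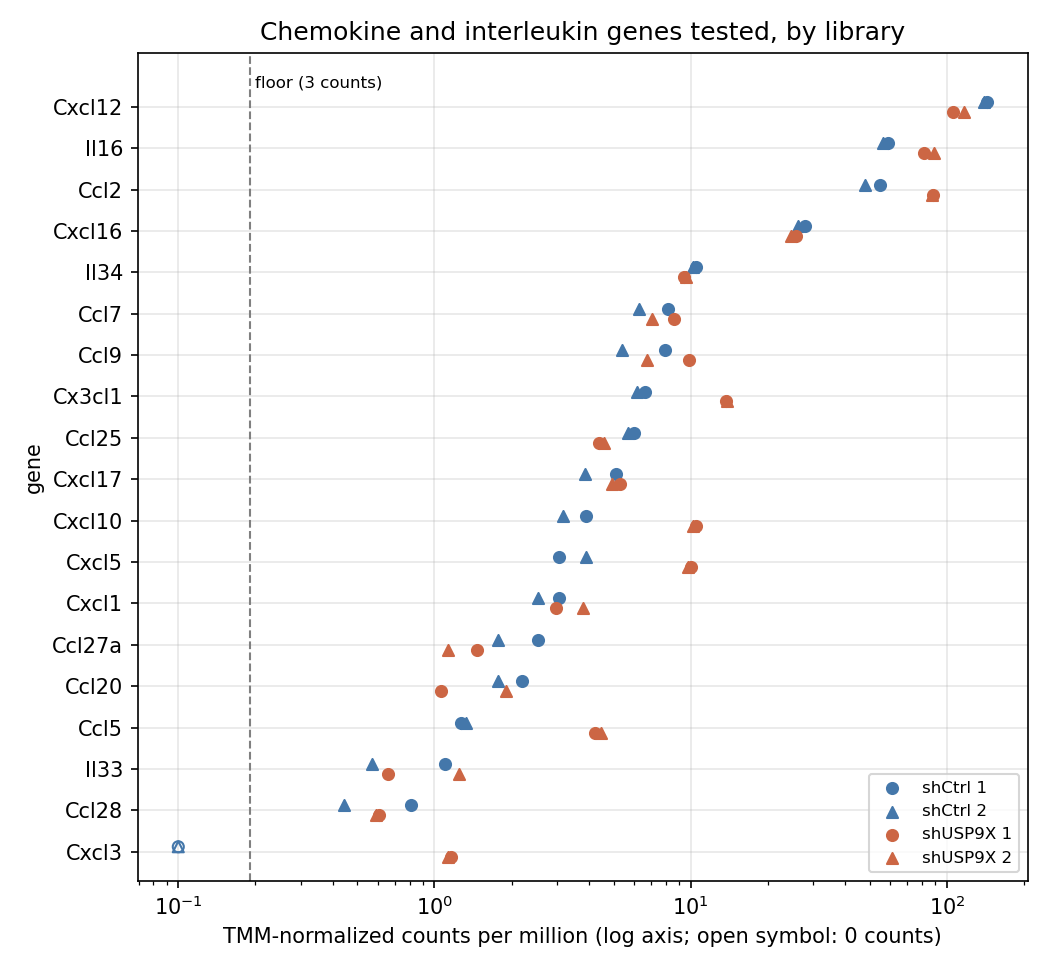
TMM-normalised CPM (log axis) of the 19 tested genes in each library, circles for replicate 1 and triangles for replicate 2, with the floor of 3 counts as a dashed line and genes ordered by their level in shCtrl. Cxcl10, Cxcl5, Ccl5 and Cx3cl1 separate clearly to the right in both shUSP9X libraries, Ccl2 and Il16 by less, and Cxcl3 has open symbols for 0 counts in shCtrl.

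Of the 36 interleukins, 3 were tested and 1 was higher, against 33.8% of all genes tested. Il16, which is released from a larger precursor and binds CD4, had the highest FPKM of the interleukins in all 4 libraries. The gene (ENSMUSG00000001741, chr7:83642825-83745726, minus strand) had 1024 and 895 counts in shCtrl against 1605 and 1498 in shUSP9X. The groups did not overlap, with 57.8 ± 1.73 against 85.05 ± 5.45 CPM (log2 fold change 0.55, SE 0.06, adjusted p = 1.17e-08). Stard5, whose exons overlap those of Il16 on the opposite strand, had a log2 fold change of 0.05 and was not called. Il34, a second ligand of the macrophage growth factor receptor CSF1R, had 182 and 162 counts in shCtrl against 187 and 162 in shUSP9X (log2 fold change -0.12, interval -0.42 to 0.17). Il33, an alarmin of epithelial nuclei that signals through the receptor Il1rl1, had 19 and 9 counts in shCtrl against 13 and 21 in shUSP9X. With so few counts its interval ran from -0.87 to 1.17.

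A further 5 interleukins were above the floor in some library without passing the filter. Il6, a classic NF-κB target, had 0 counts in both shCtrl libraries and 7 and 5 in shUSP9X. Its mean CPM in shUSP9X was 1.79 times the shCtrl floor, which allows for no error in these few shUSP9X counts. Il5, the eosinophil growth factor, had 1 count in each shCtrl library and 15 and 5 in shUSP9X, where the libraries were unequal. Il24 had 0 and 1 counts in shCtrl against 10 and 4 in shUSP9X. When the filter was dropped, Il6 and Il5 were called higher (adjusted p = 0.0371 and 0.0393) and Il24 was not (0.0748, edgeR). DESeq2 called none of the 3 (adjusted p = 0.0663, 0.103 and 0.151), whereas limma-trend on log2(FPKM + 0.1) called all 3 higher. They reached the mean FPKM of 0.1 needed there only through the shUSP9X libraries, so that these calls add little to their counts. Il18 and Il1a, both of the interleukin-1 family, showed no such pattern, with 10 and 9 against 5 and 10 counts and with 6 and 1 against 2 and 2 counts. At such counts the size of a difference cannot be given.

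**Figure D3:**
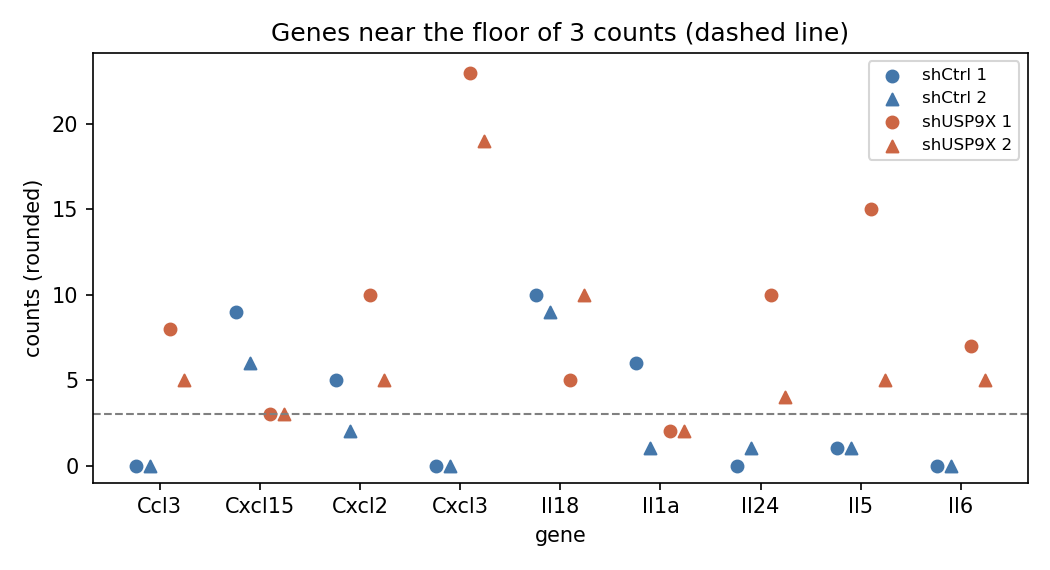
Rounded counts per library (linear axis) of Cxcl3 and of the 8 genes above the floor in some library that were under the filter on low counts, with the floor of 3 counts as a dashed line. Ccl3, Cxcl3 and Il6 are at 0 in both shCtrl libraries and above the floor in both shUSP9X libraries, and Cxcl15 is at 9 and 6 in shCtrl and at 3 in shUSP9X.

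Counted by position instead of by test, 7 of the 19 genes had both shUSP9X libraries above both shCtrl libraries and 5 had them below, Cxcl12, Ccl25, Ccl27a, Cxcl16 and Il34. Over all genes tested the shares were 41.2% above and 41.0% below. The fold changes in this data set also followed the GC content and length of the transcripts, and an offset was fitted that takes such trends out of each library. With it, the 8 called genes stayed called in the same direction. Cxcl5, whose transcript has a GC content of 37.8%, moved most, from 1.51 to 2.25. Ccl5 moved to 1.45, Cxcl10 to 1.35, Cx3cl1 to 0.92, Ccl2 to 0.95, Il16 to 0.50 and Cxcl12 to -0.30. Ccl9 then passed the threshold as higher (0.75), although without the offset it ranged from 0.015 to 0.646 over the fits that left out 1 library, and Ccl27a (-1.04), Il34 (-0.40) and Cxcl16 (-0.22) passed it as lower. Ccl20, Ccl28 and Cxcl17 changed sign without being called in either fit.

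**Figure D4:**
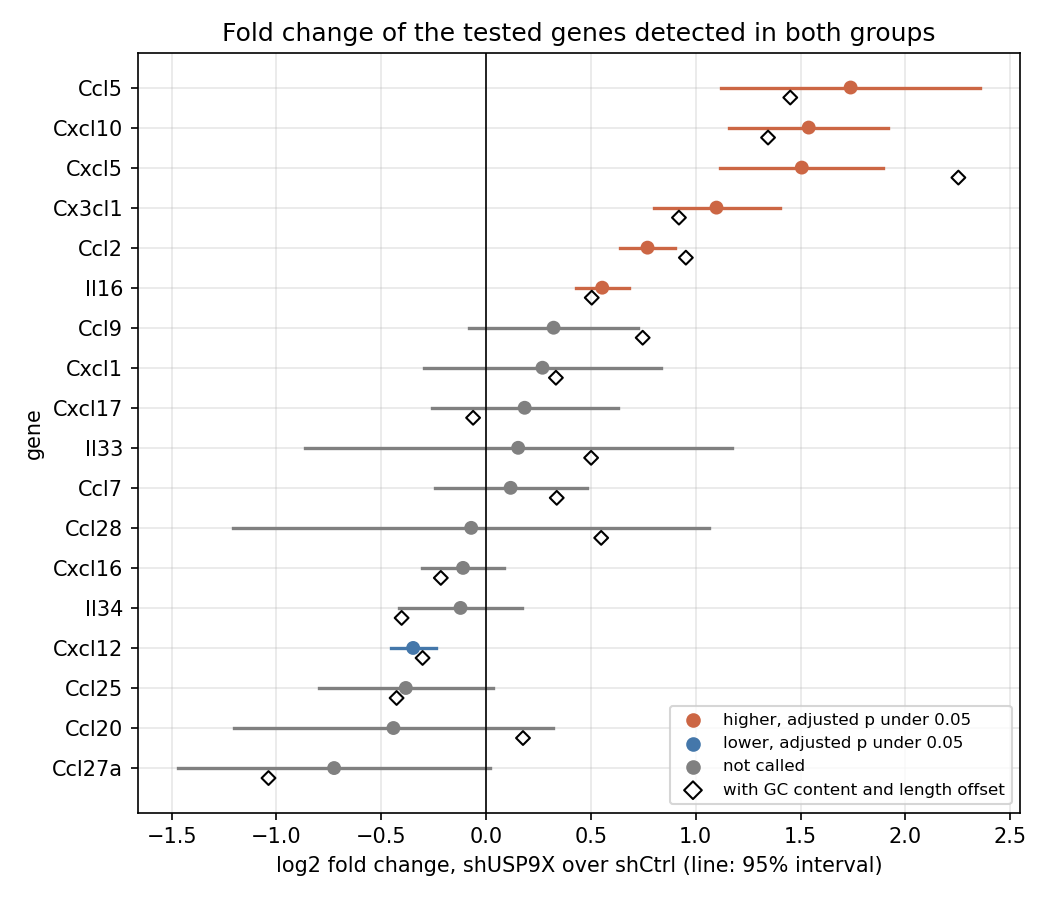
Log2 fold change of shUSP9X over shCtrl for the 18 tested genes detected in both groups, with 95% intervals as lines and the value with the GC content and length offset as open diamonds. The intervals of Ccl5, Cxcl10, Cxcl5, Cx3cl1, Ccl2 and Il16 lie above 0, that of Cxcl12 lies below it (-0.45 to -0.24), and the diamonds of the called genes are on the same side of 0.

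The receptors for these ligands were mostly not detectable, as far as 23 listed chemokine receptor genes show. In every library 14 of the 23 were at or under the floor. Of the rest, 3 were tested, and 2 of these, Ccr1 and Ccr3, were at 0 in shCtrl and passed the filter on low counts only through the shUSP9X libraries, so that their call as higher was bound to follow. Ccr7, the receptor of Ccl19 and Ccl21a, had 123 and 125 counts in shCtrl against 306 and 231 in shUSP9X (log2 fold change 0.97, SE 0.14, adjusted p = 1.38e-06), and was thus the 1 receptor called higher from counts in both groups. Its ligands, whose transcripts share stretches with other genes, were at 0. Ccr3, an eosinophil receptor for Ccl5, had 0 counts in shCtrl against 35 and 22 in shUSP9X, and Ccr1, which binds Ccl5, Ccl3 and Ccl9, had 0 in shCtrl and 18 and 17 in shUSP9X. For the other ligands that changed, receptor counts were near 0 in both groups. Ccr2, the receptor of Ccl2, and Cxcr3, that of Cxcl10, each had 1 count in 1 shUSP9X library and 0 elsewhere. Cx3cr1 had 0 counts throughout, Cxcr2 had 1 and 5 counts in shCtrl against 1 and 4 in shUSP9X, and Cxcr4 had 8 and 5 in shCtrl and 5 and 0 in shUSP9X. The second Cxcl12 receptor, Ackr3, which clears the ligand, had 7 and 3 counts in shCtrl against 5 and 2 in shUSP9X.

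Interleukin receptors were expressed more widely. Of 39 listed genes 21 were tested, 6 were higher and 7 lower, against 33.8% and 33.6% of all genes tested, with a median log2 fold change of -0.16 that turned to 0.11 with the GC content and length offset. With the offset 10 were higher (47.6%, against 36.0% of all genes) and 5 lower (23.8%, against 27.4%). Of the 7 lower genes Il1rap and Osmr stayed lower, Il13ra1, Il17rd and Il1r1 were no longer called and Il6st and Lifr were called higher. Of the 6 higher genes Il4ra was no longer called (0.15, or 0.08 with the offset). Among genes not called before, Il17ra, Il18rap and Il6ra were then called higher and Il10rb, Il11ra1 and Il20rb lower. Il1rl1, the Il33 receptor, went from 1 and 0 counts in shCtrl to 34 and 25 in shUSP9X (adjusted p = 1.79e-06), and it too passed the filter only through the shUSP9X libraries. Il2rg, the common γ chain, had 14 and 18 counts in shCtrl against 52 and 40 in shUSP9X (log2 fold change 1.37), and Il15ra had 13 and 9 in shCtrl and 26 and 29 in shUSP9X (1.18). Il1rap, the shared accessory chain of the interleukin-1 and interleukin-33 receptors, was lower, with 269 and 240 counts against 157 and 135 (-0.94, or -0.35 with the offset). Il6st and Lifr are receptor chains of the interleukin-6 family. Il6st fell by 0.27 on the log2 scale and Lifr by 0.67, but with the offset they were at 0.43 and 0.40, so that no direction can be given for them.

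Of 15 listed NF-κB genes (subunits, inhibitors and kinases), all 15 were tested, 9 were higher and 2 lower, against 33.8% and 33.6% of all genes. The median log2 fold change was 0.30. With the offset 6 were higher (40.0%, against 36.0% of all genes) and 3 lower (against 27.4%), and the median was 0.11. The 3 that lost their call as higher were Bcl3, Nfkbie and Relb. Ikbkg, the regulatory subunit of the IκB kinase, had 770 and 701 counts in shCtrl against 1611 and 1326 in shUSP9X (log2 fold change 0.85). Nfkb2, the precursor of the p52 subunit, was higher by 0.56 and Rela by 0.39, while Relb, called higher by 0.22, was at -0.004 with the offset. Chuk, a catalytic IκB kinase, was lower (-0.56), as was Rel (-0.66), but with the offset Chuk was at -0.02 and no longer called and Rel changed sign, to 0.17. Nfkbia, the inhibitor that NF-κB itself induces, had 663 and 642 counts in shCtrl against 804 and 644 in shUSP9X, a log2 fold change of 0.00 that became -0.26 with the offset.

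Among 10 listed genes for ligand antagonists, processing and release, 6 were tested, 2 were higher and 2 lower, near the 33.8% and 33.6% of all genes, and their median log2 fold change was -0.30. With the offset 2 were higher and 0 lower, against 36.0% and 27.4% of all genes, and the median was -0.01. Il1rn, the interleukin-1 receptor antagonist, had 4956 and 4512 counts in shCtrl against 7294 and 6358 in shUSP9X (log2 fold change 0.39, adjusted p = 8.18e-10). Gsdmd, the pore-forming gasdermin D through which interleukin-1 leaves the cell, was higher by 0.56. Adam10 and Adam17, the proteases that shed Cx3cl1 and Cxcl16, were lower (-0.67 and -0.43), and with the offset they were at -0.07 and -0.12 and no longer called. Of 14 other secreted cytokines, 3 were tested. Mif (0.71), whose count may share reads with processed copies of the gene, and Lif (0.60) were higher and Csf1, the macrophage growth factor, was lower, with 4260 and 3951 counts against 3616 and 3076 (-0.44). Tnf had 0, 0, 1 and 0 counts in the 4 libraries.

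**Figure D5:**
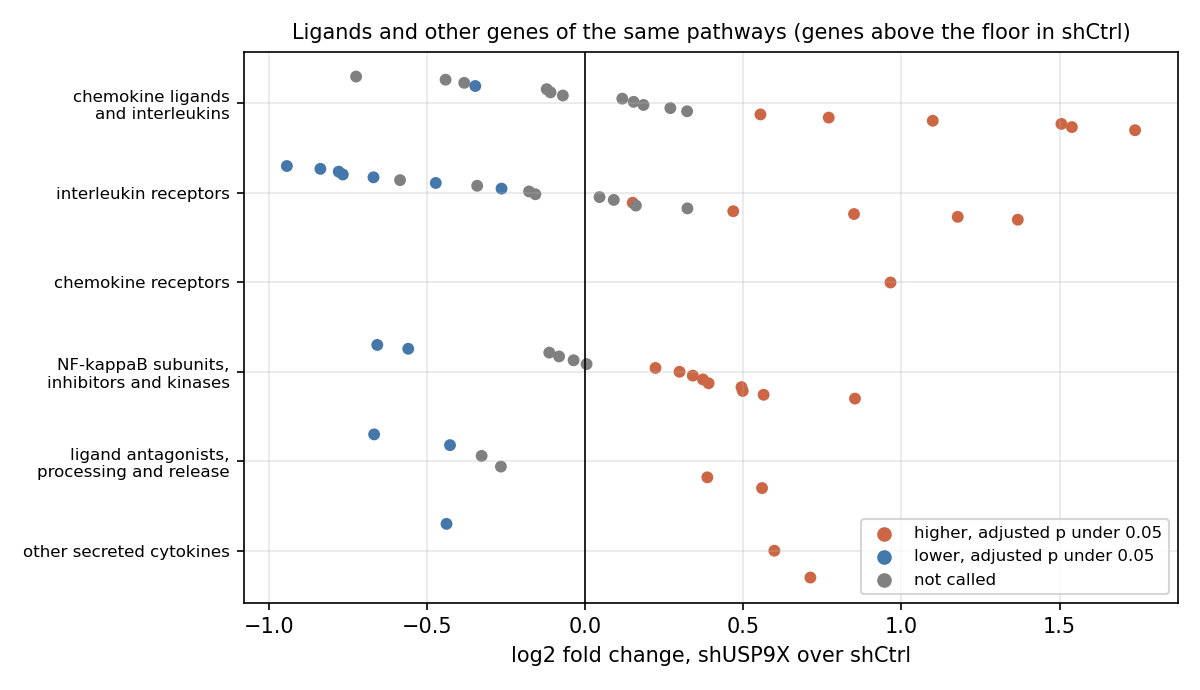
Log2 fold change of shUSP9X over shCtrl, 1 point per tested gene above 3 counts in shCtrl, for the chemokine and interleukin genes and for 5 lists of other genes of the same pathways, coloured by the call. Ligands reach from -0.73 to 1.74 with 1 called lower (Cxcl12), while interleukin receptors are called on both sides, and 9 of the 15 NF-κB genes are called higher and 2 lower, or 6 and 3 after the offset, with which Bcl3, Nfkbie, Relb, Chuk and Rel are no longer called.

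Chemokines are also made by leukocytes, so markers of other cell types were counted beside them. In a bulk sample, more cells of a type and more RNA per cell cannot be told apart. Of 13 genes of leukocytes, macrophages and monocytes, 6 were tested. Cd14 was higher in shUSP9X and Cd68 was not called, while the other 4, Itgam, Adgre1, Ptprc and Csf1r, were at 0 in both shCtrl libraries and passed the filter only through the shUSP9X libraries, so that their calls as higher add nothing to their counts. The list's summed level was 10.7 and 10.8 CPM in shCtrl and 25.5 and 25.1 CPM in shUSP9X. Cd14, which had the highest CPM of the list, had 104 and 88 counts in shCtrl against 203 and 166 in shUSP9X, while Itgam had 0 counts in shCtrl against 72 and 75 in shUSP9X and Adgre1 had 0 and then 58 and 59. Ptprc, the pan-leukocyte marker CD45, had 0 and then 29 and 18, and Csf1r 0 and then 17 and 13. Of the 13 genes, 6 were at or under the floor in all 4 libraries. Among these C1qa and C1qb were at 0 throughout, and Lyz2 had 0, 0, 0 and 2 counts. Among 8 genes of eosinophils and mast cells, 4 were at 0 in shCtrl and had counts in shUSP9X, namely Siglecf with 25 and 17, Ear6 with 8 and 13, Prg2 with 8 and 5 and Epx with 1 and 2, of which the last did not exceed the floor. The mast cell genes Cpa3, Mcpt4 and Tpsb2 were at 0 in all 4 libraries. Kit was called higher, with 130 and 112 counts in shCtrl against 219 and 179 in shUSP9X (log2 fold change 0.57), and the list sum was 7.5 and 7.08 CPM in shCtrl and 13.2 and 12.8 CPM in shUSP9X, led by Kit. None of the 8 neutrophil genes, 10 T and NK cell genes or 7 B cell genes passed the filter, and their sums stayed under 1 CPM in every library. Endothelial genes (2 of 6 tested, 1 lower) summed to 10.7 and 11.7 CPM in shCtrl and to 6.88 and 7.18 CPM in shUSP9X. Fibroblast genes (3 of 7 tested, 3 lower) summed to 252 and 259 CPM in shCtrl and to 148 and 145 CPM in shUSP9X. Dcn had the highest CPM of that list and fell least (log2 fold change -0.46, against -2.87 for Pdgfra and -1.72 for Col1a1). Of all genes tested, 33.8% were higher and 33.6% lower. With the GC content and length offset, 1 endothelial and 3 fibroblast genes were lower, against 27.4% of all genes. The part of such cells in the chemokine differences was not tested.

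RefSeq promoter entries (GRCm38.p6) were matched for 50 of the 72 genes and searched for 2 motifs on both strands of the 250 bases before each start. One was GGGNNNTNCC, the site read by NF-κB, and the other GAAANNGAAA, the interferon-stimulated response element (ISRE). The NF-κB letters were present in 15 of the 50 genes (30%), against 21.3% of the tested genes with an entry and 16.7% of all 27025 genes with one. The ISRE letters were present in 5 of the 50 (10%), against 3.2% of the tested and 3.5% of all genes. Of the 8 called genes 5 had an entry, and Ccl2, Ccl5 and Cxcl5 had none. The NF-κB letters were found in 3 of the 5, Cxcl10, Cxcl3 and Il16, the last at only part of its listed starts. They were also found in 3 of 7 uncalled tested genes with an entry (Ccl9, Ccl20 and Cxcl1). The ISRE letters were found in Cxcl10 alone among these 12 genes. Windows of 30 bases on the strand of the gene are shown for Cxcl10 and Il6 and for the 3 ELR ligands Cxcl1, Cxcl2 and Cxcl3, whose NF-κB letters can be compared. Capitals mark the matched bases, which number 11 where 2 matches overlap at adjacent positions. The windows lie at chr5:92349083-92349112 (Cxcl10, ISRE) and chr5:92348974-92349003 (Cxcl10, NF-κB) on the minus strand, and at chr5:90891164-90891193 (Cxcl1), chr5:90903792-90903821 (Cxcl2), chr5:90786018-90786047 (Cxcl3) and chr5:30013060-30013089 (Il6) on the plus strand.
Cxcl10 ISRE: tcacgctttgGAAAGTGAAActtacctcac
Cxcl10 NF-κB: tcggtttacaGGGGACTTCCCtcgggttgc
Cxcl1 NF-κB: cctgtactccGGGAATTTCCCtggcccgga
Cxcl2 NF-κB: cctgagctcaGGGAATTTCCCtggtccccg
Cxcl3 NF-κB: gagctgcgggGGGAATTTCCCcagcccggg
Il6 NF-κB: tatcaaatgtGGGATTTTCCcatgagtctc
Cxcl1, Cxcl2 and Cxcl3 carry the same 11 letters, from -71, -97 and -73 relative to the start, and their counts in shCtrl and shUSP9X are given above. The ISRE letters of Cxcl10 lie from -213 to -204. A match is a description of the sequence and not of binding.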

How the data were processed

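RNA of ID8 cells (2 shCtrl and 2 shUSP9X libraries, grouped by the titles in the labels) had been sequenced on an Illumina instrument after poly(A) selection and library preparation with a kit whose protocol in the labels marks no strand. According to the methods, the authors mapped reads to GRCm38. The submitters' processing notes list fastp 0.18.0, Bowtie2 2.2.8, HISAT2, StringTie 1.3.1 and RSEM, without their order. The authors deposited estimated counts per gene and library, not normalized, and FPKM values scaled for length and library size. The test had been planned for whole counts, so the estimated counts, of which 6.40 to 6.69% were not whole, were rounded.

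Low counts were removed with filterByExpr, TMM factors were applied, and edgeR 4.0.16 under R 4.3.3 ran its quasi-likelihood test, with adjusted p-values over all 11448 genes tested and no replicate block. CPM are TMM-normalized. Intervals are 95%. Libraries of a group differed by more than sampling noise (chi-square per gene 3.37 in shCtrl and 2.09 in shUSP9X), so neither pair was treated as 1 library deposited more than once. Whether they are separate cultures cannot be told from this. Coordinates, GC content and length came from GENCODE M21. The edgeR fit, the offset, DESeq2 and limma-trend (there on log2(CPM + 1) in place of FPKM) were tested on simulated counts. The other alternatives were not. As alternatives, DESeq2 1.42.0 replaced edgeR, scaling used library size only, upper quartile or DESeq2 size factors, the filter was dropped or set to 10 counts in every library, limma-trend (limma 3.58.1) was fitted to log2(FPKM + 1) where the mean FPKM reached 1 and to log2(FPKM + 0.1) where it reached 0.1, and further fits had a replicate block, a GC content and length offset (loess, span 0.3), both together, or 1 library fewer.

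The members, lists and tests were chosen with earlier results of these data known. Named are Usp9x, every tested member, members with at least 10 counts in some library, of each pathway list the 4 largest changes among called genes, and receptors of named members. Members above the floor with fewer counts, and Rela, Relb, Bcl3, Nfkbie, Nfkbia, Tnf, Il6st, Lifr, Ccl6, the receptors whose call changed with the offset, and the silent genes and markers, were named after their values were seen. A window of at most 30 bases was set for promoter sequences. The coding stretches were added after the files had been examined.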

Additional observations from a re-analysis of the deposited data

How the results depend on the processing

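The calls for Ccl2, Ccl5, Cxcl10, Cxcl5, Cx3cl1 and Il16 as higher and for Cxcl12 as lower held under all 15 alternatives. Cxcl3, at 0 in shCtrl, was tested under 13 of them, and its calls there are no sign of stability. The main counts were 7 higher, 1 lower and 6 past the study's fold cutoff. Dropping the filter on low counts raised the last to 10, and log2(FPKM + 0.1) raised it to 11, with 11 higher, Ccl3, Il5, Il6 and Il24 among them, and 2 lower in the adjusted test. Ccl3, Il5, Il6 and Il24 reached the mean FPKM of 0.1 only through the shUSP9X libraries. With log2(FPKM + 1) 3 were lower, namely Cxcl12, Ccl25 and Ccl27a. With the GC content and length offset 4 were lower, and also 4 when a replicate block was added to it. The replicate block alone, a fit that adds the replicate number, left 7 higher and 1 lower, with 7665 genes called in all against 7707, and it changed no call of a chemokine or interleukin gene. Same-numbered libraries did not deviate together over all tested genes (correlation -0.04). From 2 libraries per group this cannot exclude that the numbers pair the libraries, and nothing states a pairing. Leaving out 1 library at a time, the count of lower genes ranged from 1 to 2, and the second, without shCtrl replicate 2, was Ccl27a. The higher count was 8, with Ccl9, without shCtrl replicate 1 (0.646) and without shUSP9X replicate 2 (0.558), whereas Ccl9 was at 0.076 without shCtrl replicate 2 and at 0.015 without shUSP9X replicate 1. Of the genes that were not called, Ccl20, Cxcl17 and Ccl28 changed sign with the offset, to 0.18, -0.062 and 0.55, and with the block and the offset, to 0.16, -0.058 and 0.56. Over the fits without single libraries, Ccl28 ranged from -0.42 to 0.44, Il33 from -0.35 to 0.72, Ccl7 from -0.057 to 0.34 and Cxcl17 from -0.001 to 0.42, each with a change of sign. The offset moved the share of higher calls among all called genes from 50.1% to 56.7% and the median of all genes by 0.05. The cause of these shifts was not tested. Depth limits the genes near 3 counts, above all Il5, Il6, Il24 and Ccl3, and 2 libraries per group allow no permutation test that reaches 0.05.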
